A study of Mus musculus with 10 samples.

Results

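The matrix metalloproteinases (MMPs) and their tissue inhibitors (TIMPs) were followed through knockdown of the histone demethylase LSD1 in the mouse preadipocyte line 3T3-L1, which has a fibroblast form. All probe sets assigned by the platform annotation to Mmp2, Mmp3, Mmp9, Mmp10, Mmp11, Mmp13, Mmp14, Timp1, Timp2 or Timp3 were taken. They numbered 22 of 34945 probe sets with 1 gene symbol and stood for 10 of 18193 genes. The cells had received siLsd1, an siRNA against LSD1 (gene Kdm1a), or siC, a scrambled siRNA, each at 60 nM by lipid transfection with no change of medium. The groups were siLsd1 at 24 h and siC at 24 h, with 2 arrays each from cells of passage 19, and siLsd1 at 48 h and siC at 48 h, with 3 arrays each from passage 21. All cells were labelled Day 0 and kept in medium with calf serum. The labels call the replicates biological without saying what separates them, so a p-value reflects array-to-array spread that may be technical. Values are probe set intensities in linear units, which allow a gene to be compared between arrays but not with another gene.

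MMPs are zinc-dependent endopeptidases that are secreted or anchored in the membrane as inactive zymogens and cut collagens, laminins, fibronectin and other matrix proteins. TIMPs are secreted proteins that bind the active site of MMPs and block it, and TIMP2 also serves as the adaptor through which membrane-bound MMP14 activates pro-MMP2. In adipose tissue this system remodels the matrix around preadipocytes as they spread, round up and fill with lipid.

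Mmp13, Mmp3 and Mmp10 belong to a gene cluster on mouse chromosome 9, and collagenase and stromelysin promoters are textbook examples of control by AP-1, the Fos and Jun dimer, through a site upstream of the TATA box. RefSeq promoter windows (GRCm38.p6, 250 bases before to 50 after the annotated start) matched 8 of the 10 genes, the others being Mmp2 and Mmp9. The 120 bases before the start are shown for the 3 genes of the cluster because these carried both motifs. Capitals mark matches to TGANTCA (AP-1) and to TATAA (TATA), searched on both strands, and no matches of the 2 motifs overlapped.
Mmp13, chr9:7272394-7272513, plus strand: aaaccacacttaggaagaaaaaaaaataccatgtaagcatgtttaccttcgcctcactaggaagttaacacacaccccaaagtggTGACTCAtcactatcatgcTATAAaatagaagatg
Mmp3, chr9:7445702-7445821, plus strand: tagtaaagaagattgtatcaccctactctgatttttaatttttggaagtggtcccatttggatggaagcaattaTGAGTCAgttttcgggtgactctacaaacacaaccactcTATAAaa
Mmp10, chr9:7502222-7502341, plus strand: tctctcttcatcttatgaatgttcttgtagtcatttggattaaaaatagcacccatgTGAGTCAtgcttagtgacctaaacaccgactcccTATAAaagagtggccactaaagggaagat

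The AP-1 match began 35 bases before the start in Mmp13, 46 in Mmp3 and 63 in Mmp10, each followed by a TATA match at 16, 7 and 29 bases before the start. Of the 8 promoters 3 held the AP-1 motif, against 7.81% of 32851 RefSeq promoter windows of the same length. The same 3 held both motifs, against 2.72% of all windows. The TATA motif alone was found in 5 of the 8 (24.9% of all windows), also in Mmp11 and Timp3. The PEA3 motif AGGAAG, read by ETS factors, was found in 5 of the 8 promoters (35.4% of all windows) and the GC box GGGCGG in 5 (35.7%). Mmp13 had 2 PEA3 matches, at 109 and 62 bases before its start, and no GC box, whereas Mmp11 had 4 GC boxes and no PEA3 match.

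**Figure D1:**
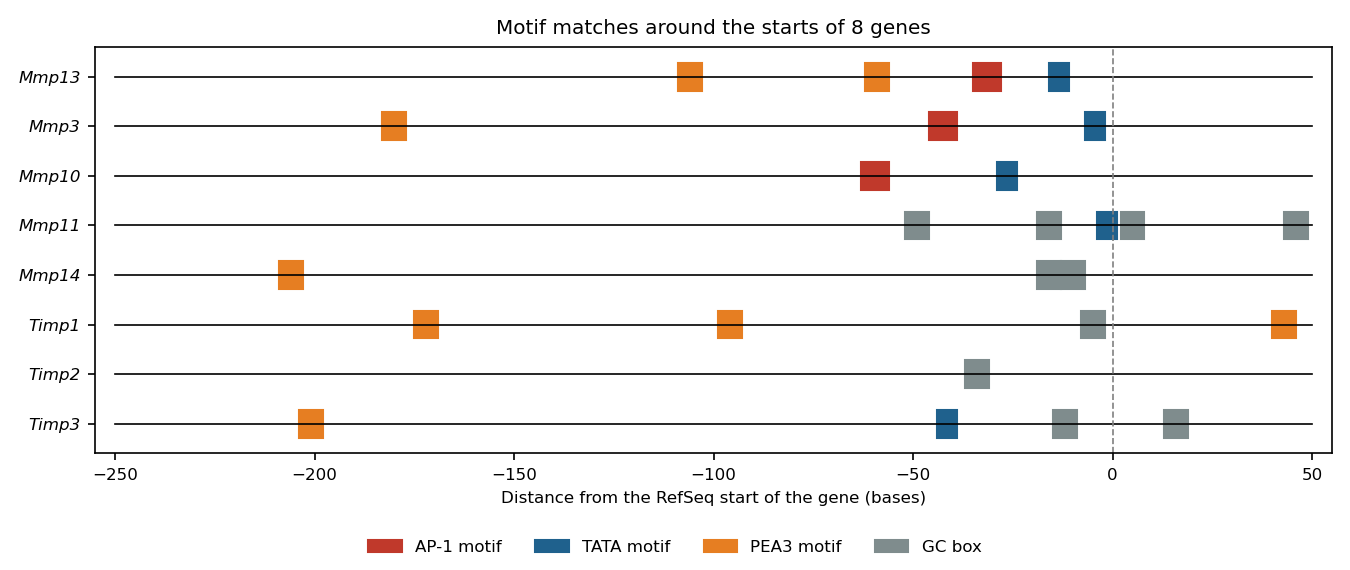
Motif matches (coloured boxes) in the promoter windows of 8 genes, drawn by distance in bases from the RefSeq start, which is the dashed line. AP-1 boxes appear in Mmp13, Mmp3 and Mmp10, each with a TATA box to its right, while Mmp11, Mmp14, Timp1, Timp2 and Timp3 carry 1 or more GC boxes. Mmp11 and Timp3 also carry a TATA box.

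The arrays had median intensities of 35.6 to 40.6, and genes in the lowest 25% by mean, up to 18.4 units, were left out as dim. All 10 members passed this filter and lay above 18.4 units on all 10 arrays, so none entered through 1 group alone. Kdm1a read 1001 and 971 with siLsd1 at 24 h, against 1559 and 1621 with siC (limma adjusted p 0.0473). At 48 h it read 1352, 1336 and 897 with siLsd1, against 1596, 1787 and 1775 with siC (limma adjusted p 0.0338). The lowest Kdm1a reading was thus on siLsd1 48 h replicate 3, and leaving that array out also leaves out the lowest Kdm1a level. SiLsd1 48 h replicate 3 stood apart: over 6943 brighter genes, the SD of its log2 difference from its replicates was 0.441 and 0.439, against 0.089 to 0.205 for other pairs within a group. For the members, values without it are given where a call or a sign changed or the value moved clearly. For list genes and markers only some are given, so other 48 h folds of these genes may also depend on it. Without it 25.5% of all genes were called at 24 h and 18.1% at 48 h. Fibroblast markers such as Col1a1 and Vim were bright, at 3668 to 5325 and 13459 to 14110 units by group mean, though Cd34 was below the dim level. Of the 8 leukocyte markers, Ptprc was below the dim level on all arrays, while the other 7 were tested, with Cd14 at 342 to 414 and Lyz2 at 112 to 306 units by group mean. Of the 5 endothelial markers, Pecam1 was below it in every group mean, while Kdr and Tek were tested. The summed intensity of 9 fibroblast markers was lower with siLsd1, at 47607 to 47828 against 52862 to 54953 with siC at 24 h, and at 40789.6 to 49685 against 52145 to 53297 at 48 h. The markers did not share this fall: the brightest, Vim and Col1a2, differed by 0.01 and 0.03 log2 units at 24 h and by −0.05 each at 48 h. On siLsd1 48 h replicate 3, Col1a1 read 2143 units, against 4344 and 4519 on its replicates, and Pdgfra read 1865, against 5757 and 5909. In bulk RNA, fewer cells of a type and less RNA per cell cannot be told apart.

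At 24 h the siLsd1 comparison asks which transcripts of the family differed a day after transfection. Mmp9, which encodes gelatinase B, fell 2.11-fold with siLsd1, and it was the 1 member called of 10 (limma, Benjamini-Hochberg adjusted p under 0.05 over 13644 genes), against 5.39% of all genes. No member was called higher, against 2.6% of all genes, and 1 lower, against 2.79%. The siRNA groups did not overlap, with siLsd1 higher, for 2 members (27.5% of all genes) and, with siLsd1 lower, for 3 (33.9%). Mmp13, the main collagenase of mouse fibroblasts, averaged 2.27-fold higher and missed the threshold. The representative probe sets of the 3 inhibitor genes differed by at most 0.09 on the log2 scale, while other probe sets ran from −0.68 to 0.35 for Timp2 and down to −0.28 for Timp3. At 48 h Mmp13 rose 3.84-fold, and Mmp9 and Mmp2 each fell 1.49-fold. The 3 calls stood against 12.7% of all genes, with 1 member higher (6.0% of all genes) and 2 lower (6.67%). The groups did not overlap for 3 members that were higher (16.6% of all genes) and 4 that were lower (20.9%). The median log2 difference of the 10 members was 0.07 at 24 h and −0.18 at 48 h, against −0.02 for all genes at both times.

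**Figure D2:**
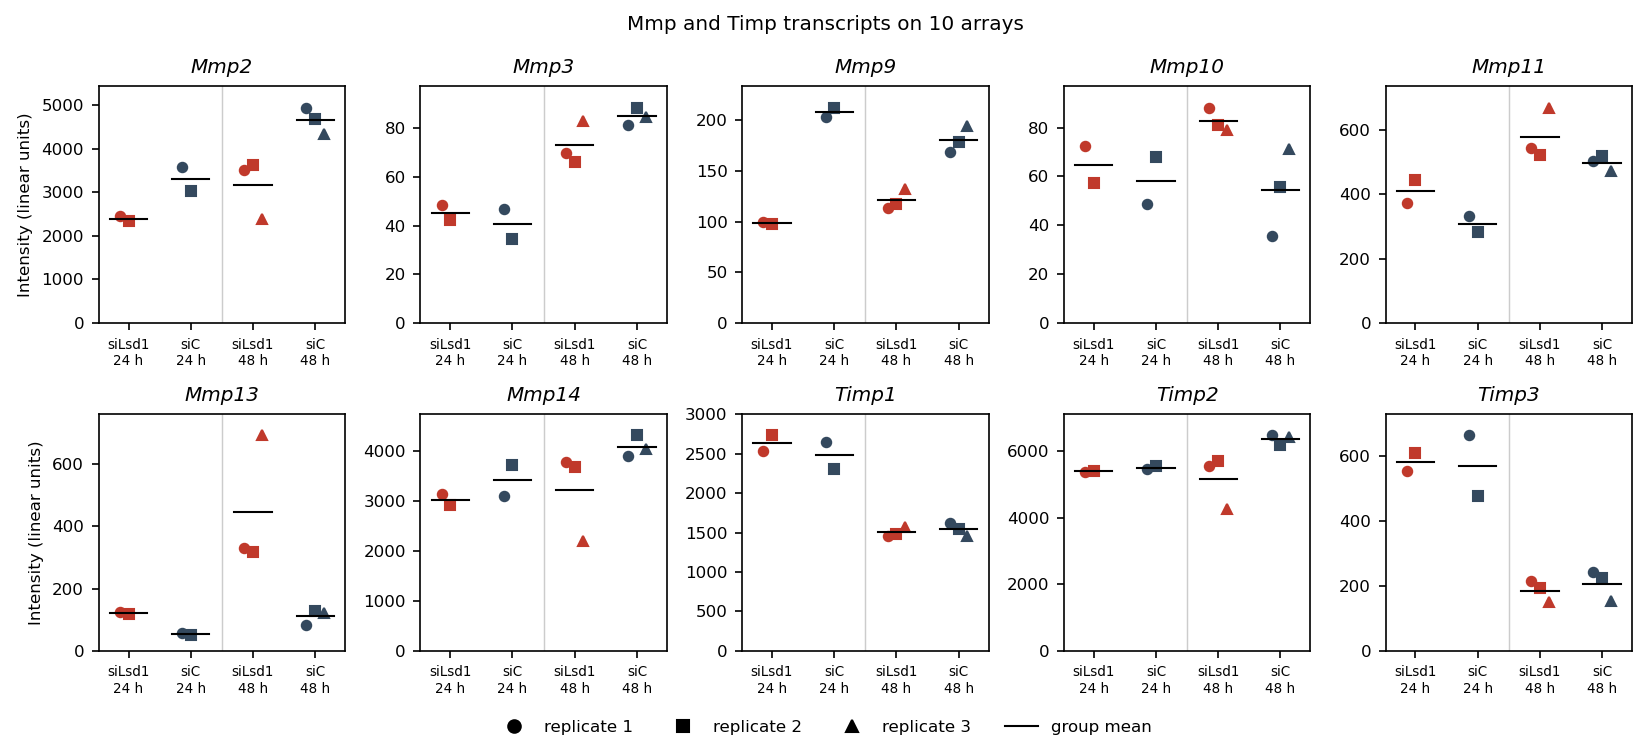
Intensity (linear units, axes from 0) of the probe set standing for each of the 10 genes on every array, with siLsd1 in red, siC in dark grey, a symbol per replicate and a line at the group mean. Mmp9 and Mmp13 separate by siRNA at both times in opposite directions, Timp1 and Timp3 separate by time, and siLsd1 48 h replicate 3 is the highest array for Mmp13 and Mmp11.

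Mmp13 (Entrez gene 17386) encodes collagenase 3, which cleaves fibrillar collagens. Its intensity was 126 and 119.8 on the siLsd1 arrays at 24 h, against 57.1 and 51.1 on the siC arrays. The 48 h arrays read 329, 317 and 692 with siLsd1, against 81.4, 128 and 122 with siC. Each siLsd1 array was above each siC array of its time, and replicate 3 of siLsd1 at 48 h was above both of its replicates by more than the whole range of the siC arrays. The group means were 123 ± 4.14 with siLsd1 and 54.1 ± 4.27 with siC at 24 h (SD, n = 2 each), a log2 difference of 1.18 (SE 0.35, limma adjusted p 0.0769). At 48 h they were 446 ± 213 with siLsd1 and 111 ± 25.5 with siC (SD, n = 3 each), a log2 difference of 1.94 (SE 0.28, limma adjusted p 0.00456). The 24 h difference was called without siLsd1 48 h replicate 3 (adjusted p 0.00108), an array of neither group compared. The 48 h difference was 1.57 without that array (adjusted p 0.000168).

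Mmp3 and Mmp10, genes of the same cluster, encode stromelysins 1 and 2, which degrade proteoglycans and activate other pro-MMPs. Mmp3 (Entrez gene 17392) read 48.3 and 42.4 units with siLsd1 at 24 h, against 46.8 and 34.4 with siC. The 48 h values were 69.8, 66.1 and 83.0 with siLsd1, against 81.5, 88.5 and 84.6 with siC. The groups overlapped at both times, and the log2 differences were 0.17 (limma adjusted p 0.646, 95% interval −0.26 to 0.61) and −0.22 (adjusted p 0.361, −0.58 to 0.13), the second being −0.32 without siLsd1 48 h replicate 3 (adjusted p 0.227).

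Mmp10 (Entrez gene 17384) read 72.3 and 57.4 units with siLsd1 at 24 h, against 48.6 and 67.8 with siC, and the groups overlapped. Its 48 h intensity was 88.2, 80.9 and 79.05 with siLsd1, against 35.7, 55.9 and 71.4 with siC. Every siLsd1 array was then above every siC array. The 48 h log2 difference of 0.66 did not pass the test (SE 0.24, limma adjusted p 0.0963, 95% interval 0.12 to 1.20), and the siC arrays spread over a 35.7 to 71.4 range on their own. It was 0.39 without siC 48 h replicate 1 and 0.89 without siC 48 h replicate 3. Of the 3 cluster genes with an AP-1 and a TATA match, Mmp13 was called with siLsd1 at 48 h and the other 2 were not. None of them was called with siLsd1 at 24 h.

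RefSeq places 10 Mmp genes in this stretch of chromosome 9. Of the 9 with a probe set here, 3 were tested, namely Mmp13, Mmp3 and Mmp10. The others, Mmp12, Mmp1b, Mmp1a, Mmp8, Mmp20 and Mmp7, did not exceed 21.3 units on any array, near the dim level of 18.4.

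Mmp11 (Entrez gene 17385) encodes stromelysin 3, an MMP activated inside the cell by furin. At 24 h it read 375 and 446 units with siLsd1, against 334 and 282 with siC. The later arrays gave 544, 521.1 and 670.2 with siLsd1, against 504, 519.9 and 472 with siC. The siLsd1 arrays were above the siC arrays at both times, with nearly equal nearest arrays at 48 h, 521.1 with siLsd1 and 519.9 with siC. The log2 differences of 0.41 at 24 h (SE 0.15, limma adjusted p 0.135) and 0.21 at 48 h (SE 0.12, adjusted p 0.272) did not pass. Without siLsd1 48 h replicate 3 the 24 h difference was called (adjusted p 0.016), while the 48 h difference was 0.09 (adjusted p 0.565).

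The gelatinases MMP2 and MMP9 degrade denatured collagen and type IV collagen of basement membranes. Mmp9 (Entrez gene 17395) read 99.8 and 97.4 units with siLsd1 at 24 h, against 203 and 212 with siC. The 48 h arrays gave 113, 118 and 132 with siLsd1, against 168, 179 and 194 with siC. The siLsd1 arrays were the lower at both times with no overlap, and siLsd1 48 h replicate 3 was the nearest of its group to the siC arrays. Means were 98.6 ± 1.75 with siLsd1 and 208 ± 6.52 with siC at 24 h (SD, n = 2 each), a log2 difference of −1.08 (SE 0.13, limma adjusted p 0.00307). At 48 h they were 121 ± 9.87 with siLsd1 and 180.4 ± 13.2 with siC (SD, n = 3 each), a log2 difference of −0.58 (SE 0.10, limma adjusted p 0.0102) that was −0.64 without replicate 3 of siLsd1. The dimmer probe set of Mmp9 gave log2 differences of −1.05 and −0.51. It was not called at either time when every probe set was fitted on its own (adjusted p 0.0699 and 0.163), a fit that called 2.65% and 8.08% of 26208 probe sets at 24 h and 48 h.

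Mmp2 (Entrez gene 17390) encodes gelatinase A, a constitutive product of fibroblasts. It read 2464 and 2332 units with siLsd1 at 24 h, against 3593 and 3037 with siC. At 48 h it read 3506, 3627 and 2377 with siLsd1, against 4947, 4679 and 4342 with siC. The siLsd1 arrays were lower without overlap at both times, and replicate 3 of siLsd1 at 48 h lay well under its replicates. Means at 48 h were 3170.4 ± 689.5 with siLsd1 and 4656 ± 303 with siC (SD, n = 3 each), a log2 difference of −0.58 (SE 0.14, limma adjusted p 0.0316). Leaving out that array gave −0.38 (adjusted p 0.00526). The call was lost without siLsd1 24 h replicate 1 or 2 (adjusted p 0.0571 for each) and without siC 48 h replicate 1, 2 or 3 (0.0973, 0.101 and 0.0696). At 24 h the log2 difference of −0.46 (SE 0.18, limma adjusted p 0.157) was not called, but leaving out replicate 3 of siLsd1 at 48 h made it a call (adjusted p 0.00184). The other Mmp2 probe set gave −0.47 and −0.64 and was called at 48 h in the fit of all probe sets (adjusted p 0.0401).

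Mmp14 (Entrez gene 17387) encodes the membrane-bound MT1-MMP, which activates pro-MMP2 at the cell surface and is itself a pericellular collagenase. Its brightest probe set read 3131 and 2918 units with siLsd1 at 24 h, against 3097 and 3718 with siC. The 48 h arrays read 3767, 3667 and 2188 with siLsd1, against 3896, 4309 and 4043 with siC. The groups overlapped at 24 h and not at 48 h, where siLsd1 replicate 3 was by far the lowest array. The log2 differences were −0.17 (SE 0.22, limma adjusted p 0.702) and −0.39 (SE 0.18, adjusted p 0.163), and the 48 h one was −0.13 without replicate 3 of siLsd1. All 3 probe sets of Mmp14 were lower with siLsd1 at both times, by 0.17 to 0.37 at 24 h and 0.39 to 0.58 at 48 h in log2 units, and the second brightest was called at 48 h in the fit of all probe sets (adjusted p 0.0474).

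No Timp gene was called with siLsd1 at 24 h or 48 h. Timp1 (Entrez gene 21857), whose product inhibits most soluble MMPs, read 2539 and 2733 units with siLsd1 at 24 h, against 2645 and 2311 with siC. At 48 h it read 1459, 1483 and 1576 with siLsd1, against 1619, 1542 and 1460.2 with siC. The groups overlapped at both times, with log2 differences of 0.09 (limma adjusted p 0.605, 95% interval −0.11 to 0.30) and −0.03 (adjusted p 0.806, −0.20 to 0.14).

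Timp3 (Entrez gene 21859) encodes the inhibitor that binds to the matrix itself and also blocks ADAM17. Its brightest probe set read 556 and 611 units with siLsd1 at 24 h, against 665 and 477 with siC, and 214, 195 and 149 with siLsd1 at 48 h, against 242, 224 and 154 with siC. The siRNA groups overlapped at both times (log2 differences 0.05, limma adjusted p 0.940, and −0.14, adjusted p 0.664). Of its 4 probe sets, 3 were lower with siLsd1 at 24 h and 3 were higher at 48 h, so no direction was shared, and none was called in the fit of all probe sets at 24 h or 48 h.

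Timp2 (Entrez gene 21858) had 6 probe sets, which differed in direction. Its representative probe set read 5388 and 5419 units with siLsd1 at 24 h, against 5462 and 5551 with siC. At 48 h it read 5549, 5698 and 4257 with siLsd1, against 6482, 6199.6 and 6438 with siC. The siLsd1 arrays were lower without overlap at both times, by little at 24 h. The log2 differences were −0.03 (SE 0.12, limma adjusted p 0.924) and −0.31 (SE 0.09, adjusted p 0.0557). At 48 h the difference was −0.18 and called without siLsd1 48 h replicate 3 (adjusted p 0.00903). The second probe set, nearly as bright, read 6867 and 6818 units with siLsd1 at 24 h, against 5643 and 5111 with siC, a log2 difference of 0.35 in the other direction (SE 0.09, adjusted p 0.0746 in the fit of all probe sets). At 48 h it read 4675, 4729.7 and 5581 with siLsd1, against 4648, 4436 and 4434 with siC, with every siLsd1 array the higher. In all, 5 of the 6 Timp2 probe sets were lower with siLsd1 at 24 h and 4 at 48 h, and the direction for this gene depends on the probe set read.

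**Figure D3:**
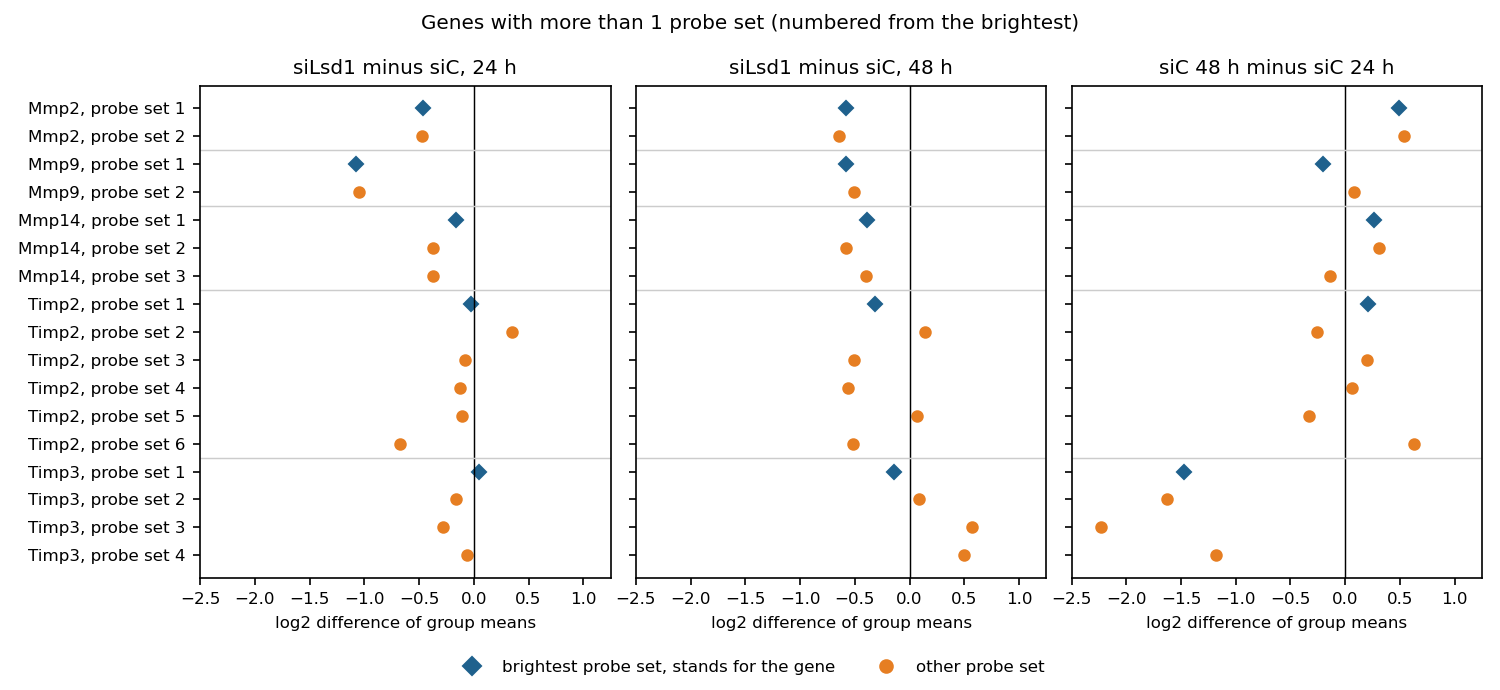
Log2 difference of group means for each probe set of the 5 genes with more than 1, numbered from the brightest, with siLsd1 minus siC at 24 h and 48 h and siC 48 h minus siC 24 h in separate panels. Mmp2, Mmp9 and Mmp14 points lie left of 0 in both siRNA panels, Timp2 points fall on both sides of 0 in every panel, and all Timp3 points lie left of 0 in the time panel.

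Whether the siLsd1 difference changed between 24 h and 48 h was tested as a difference of differences. No member passed, as for 0% of the 13644 genes (limma), and 1 member, Mmp9, had an unadjusted p under 0.05 (p 0.012 from the limma fit), as did 896 of all genes. Mmp9 differed between siRNAs by 0.50 less on the log2 scale at 48 h than at 24 h (SE 0.16, limma adjusted p 0.581), and Mmp13 by 0.76 more (SE 0.45, adjusted p 0.874). Without siLsd1 48 h replicate 3 these values were 0.43 and 0.39, both not called. A difference that misses the threshold does not show that the times act alike, and the comparison also spans 2 passages.

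The siC groups of 48 h and 24 h were also compared, where time in culture and passage cannot be told apart. Of the 10 members 6 were called, against 24.2% of all genes. Mmp3, Mmp13, Mmp11 and Mmp2 were the 4 higher at 48 h (12.0% of all genes), and Timp3 and Timp1 the 2 lower (12.2%). The groups did not overlap for 6 members higher at 48 h (28.7% of all genes) and 3 lower (26.9%). Of the 7 proteases 4 rose and 0 fell, and of the 3 inhibitors 0 rose and 2 fell. With each array centred on its median, which shifted all genes of this comparison by 0.14 log2 units, the calls of Mmp2 (adjusted p 0.104) and Mmp13 (0.073) were lost.

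Timp3 showed the largest difference among the members, with means of 207 ± 46.4 units in siC cells at 48 h (SD, n = 3) and 571 ± 133 at 24 h (SD, n = 2), a 2.77-fold fall (log2 difference −1.47, SE 0.22, limma adjusted p 0.00139). All 4 Timp3 probe sets were lower at 48 h, by 1.18 to 2.23 log2 units, the 1.18 being of the dimmest, at 5.74 to 23.7 units with siC at 48 h. Timp1 fell 1.61-fold, to 1540.4 ± 79.6 at 48 h against 2478 ± 236 at 24 h (log2 difference −0.68, SE 0.08, limma adjusted p 0.000449). In siLsd1 cells, Timp3 averaged 186 ± 33.3 units at 48 h (SD, n = 3) and 583 ± 39.1 at 24 h (SD, n = 2), and Timp1 averaged 1506 ± 62.0 at 48 h and 2636 ± 137 at 24 h.

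Mmp3 rose 2.11-fold in siC cells, to 84.9 ± 3.50 at 48 h against 40.6 ± 8.80 at 24 h (log2 difference 1.08, SE 0.18, limma adjusted p 0.00213). Mmp11 rose 1.62-fold, to 499 ± 24.4 against 308 ± 36.7 (log2 difference 0.70, SE 0.14, limma adjusted p 0.00523), and this call was lost without siC 24 h replicate 2 (adjusted p 0.0617). Mmp13 rose 2.01-fold and Mmp2 1.41-fold (log2 differences 1.01 and 0.49, limma adjusted p 0.0425 and 0.0497). Both calls were lost without siC 24 h replicate 1 or 2, without either siLsd1 24 h array and without siC 48 h replicate 2 or 3, and that of Mmp2 also without siC 48 h replicate 1 (adjusted p between 0.0665 and 0.193 for Mmp13 and between 0.0731 and 0.280 for Mmp2). Mmp9, Mmp10, Mmp14 and Timp2 did not pass (log2 differences −0.21, −0.14, 0.27 and 0.21). Mmp14 and Timp2 were called without siLsd1 48 h replicate 3 (adjusted p 0.014 and 0.00116). These values are of the brightest probe sets. Of the 6 Timp2 probe sets 4 were higher and 2 lower at 48 h, the second brightest being lower without overlap (log2 difference −0.25). Of the 3 Mmp14 probe sets 2 were higher and 1 lower.

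**Figure D4:**
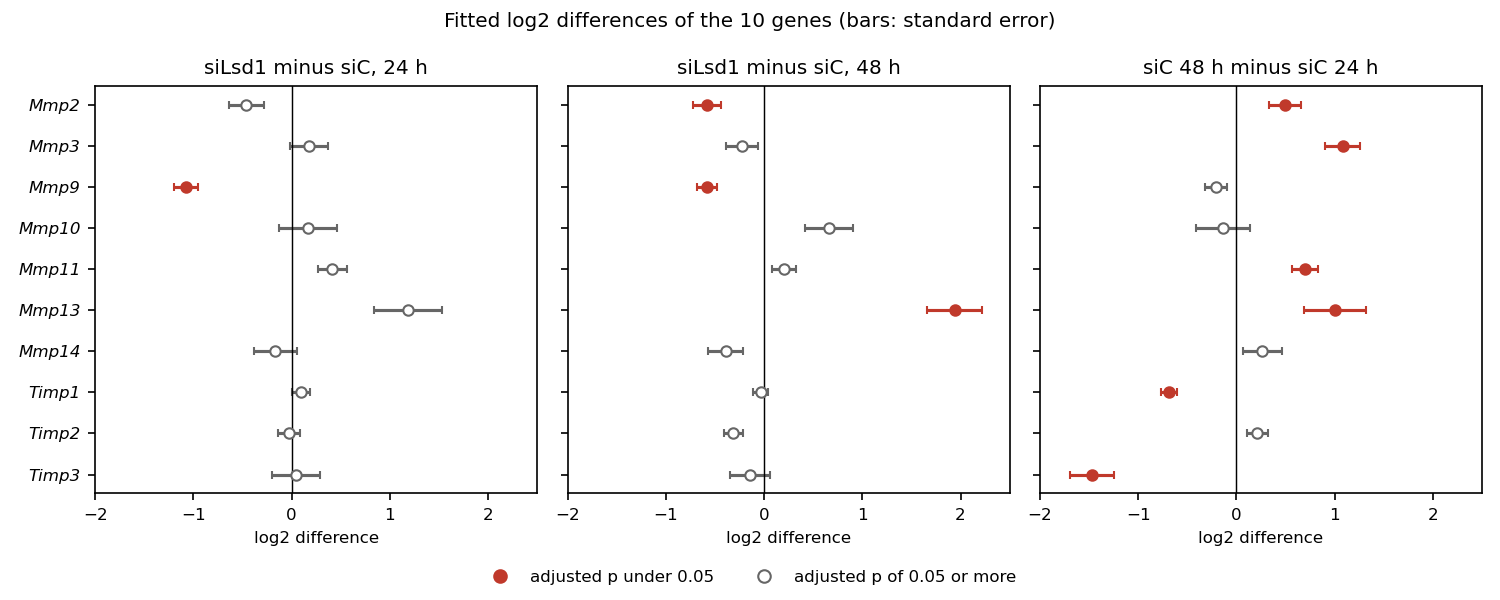
Fitted log2 differences with standard errors for the 10 genes in 3 comparisons: siLsd1 minus siC at 24 h, the same at 48 h, and siC 48 h minus siC 24 h. Filled red points have an adjusted p under 0.05: Mmp9 at 24 h, Mmp2, Mmp9 and Mmp13 at 48 h, and Mmp2, Mmp3, Mmp11, Mmp13, Timp1 and Timp3 over time.

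Over the 4 groups, the order of the levels differed from gene to gene. For Mmp13 it ran siLsd1 48 h, siLsd1 24 h, siC 48 h, siC 24 h, and the middle pair overlapped. For Mmp9 it ran siC 24 h, siC 48 h, siLsd1 48 h, siLsd1 24 h with no overlap between neighbours. Mmp11 followed time first, in the order siLsd1 48 h, siC 48 h, siLsd1 24 h, siC 24 h, with no overlap. For Mmp2 and Mmp14 siC 48 h was the highest and separate from the next group, and the other 3 groups overlapped with their neighbours. For Timp1 and Timp3 the 24 h groups were above the 48 h groups, and within each time the siRNA groups overlapped. Mmp3 was higher in the 48 h groups than in the 24 h groups, and the siRNA groups overlapped within each time. For Mmp10 siLsd1 48 h was the highest and separate, and the other groups overlapped with their neighbours. For Timp2 siC 48 h was the highest, followed by siC 24 h, siLsd1 24 h and siLsd1 48 h, of which the last pair overlapped. The place of siLsd1 48 h for Timp2, Mmp2 and Mmp14 rests on its replicate 3, at 4257, 2377 and 2188 units. Its other arrays read 5549 and 5698 for Timp2, against 5462 and 5551 with siC at 24 h. For Mmp2 they read 3506 and 3627, against 3593 and 3037, and for Mmp14 3767 and 3667, against 3097 and 3718. Without replicate 3, the siLsd1 48 h mean of each lies above that of siC 24 h.

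The genes whose log2 intensity followed each member called at 24 h or 48 h most closely over the 10 arrays were found among 13634 other tested genes by Pearson's r. For Mmp13 they were Dram2 (r = 0.993), Clec2d (0.983) and Gyg (0.961), for Mmp9 Xrcc6 (0.972), Ufsp2 (0.971) and Tspan12 (0.970), and for Mmp2 Pip4k2b (0.989), Desi2 (0.989) and Kdelr1 (0.988). The points share arrays, siRNA and time, and the best of many genes are shown, so these values describe and do not test. Dram2 read 610.04, 611 and 714 units with siLsd1 at 48 h, against 448, 498 and 520.2 with siC.

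Other parts of the proteolytic system were read from lists chosen with earlier results of these data known. Their counts stand beside 2.6% of all genes called higher and 2.79% lower at 24 h, and 6.0% higher and 6.67% lower at 48 h. Of the 16 calls in these lists at 24 h, 0 were kept without each of the 10 arrays in turn: each was lost both without siC 24 h replicate 1 and without siC 24 h replicate 2. Of the 18 at 48 h, 6 were kept throughout, namely those of Serpinb2, Cd44, Tfpi2, Osmr, Il6 and Vcan. Of 6 other tested family members, 0 rose and 1 fell at 24 h, and none was called at 48 h, with list medians of −0.15 and −0.11. The one that fell was Mmp19, an MMP of basement membrane substrates, which read 93.9 and 88.3 units with siLsd1 at 24 h, against 188 and 198 with siC (log2 difference −1.09, SE 0.17, limma adjusted p 0.0089). At 48 h its difference was −0.46 (adjusted p 0.0596). Timp4 did not pass (log2 differences −0.14 and −0.09). Of 8 tested genes of plasminogen activation, the serine protease cascade that activates several pro-MMPs, 1 rose and 0 fell at 24 h, and 2 rose and 1 fell at 48 h, with medians of −0.07 and −0.24. Without siLsd1 48 h replicate 3, 3 rose and 1 fell at 24 h, and 2 rose and 2 fell at 48 h. Serpinb2, an inhibitor of urokinase, rose 3.48-fold at 24 h and 5.32-fold at 48 h (limma adjusted p 0.0287 and 0.00279). Its 48 h rise was 3.91-fold without siLsd1 replicate 3. The siC arrays at 48 h read 16.35, 17.6 and 21.3 units for Serpinb2, near the dim level of 18.4. Plgrkt, a plasminogen receptor, rose 1.17-fold at 48 h, and Anxa2, which binds plasminogen at the cell surface, fell 1.16-fold.

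Of 13 tested genes of MMP activation and surface control, 0 rose and 2 fell at 24 h (7 fell without siLsd1 48 h replicate 3), and 0 rose and 3 fell at 48 h (5 fell without it), with medians of −0.23 and −0.26. Tfpi2, a matrix-bound serine protease inhibitor, read 77.1 and 77.2 units with siLsd1 at 24 h, against 164 and 175 with siC, and 85.3, 65.9 and 45.5 with siLsd1 at 48 h, against 136, 160.4 and 149 with siC. It fell 2.19-fold and 2.33-fold (limma adjusted p 0.0271 and 0.00691), and 1.97-fold at 48 h without siLsd1 replicate 3. Cd44, a hyaluronan receptor that docks MMP9 and MMP14, fell 1.31-fold and 1.35-fold (adjusted p 0.0264 and 0.00671), and Cav1, the coat protein of caveolae, fell at 48 h (log2 difference −0.26, adjusted p 0.0297). Of 8 ADAM membrane proteases, 1 fell at 24 h (2 without siLsd1 48 h replicate 3) and 2 at 48 h (2 without it), with medians of −0.21 and −0.16. Adam19 was down 1.90-fold and 1.42-fold, and Adam12 was down 1.73-fold at 48 h. Without that array the 48 h falls were 1.59-fold for Adam19 and 1.45-fold for Adam12.

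Of 14 tested AP-1, ETS and NF-kB factors known to act on MMP promoters, 4 rose and 1 fell at 24 h (6 and 1 without siLsd1 48 h replicate 3), and 3 rose and 0 fell at 48 h (the same counts without it). The list median was 0.25 at 24 h and 0.05 at 48 h on the log2 scale, beside −0.02 for all genes at both times. Jun, a subunit of AP-1, rose 1.56-fold at 24 h (log2 difference 0.65, SE 0.09, limma adjusted p 0.00476) and 1.23-fold at 48 h (adjusted p 0.0276, while another Jun probe set read −0.16). Ets2 rose 1.60-fold and 1.56-fold, Rela, a subunit of NF-kB, rose 1.41-fold and 1.29-fold, and Etv5 fell 1.76-fold at 24 h. Jund, named here after its values were seen, rose 1.29-fold at 24 h.

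Of 17 tested MMP-inducing cytokines and receptors, 2 rose at each time and 0 fell (without siLsd1 48 h replicate 3, 3 rose and 4 fell at 24 h, and 2 rose and 1 fell at 48 h), with medians of −0.014 and −0.015. Il6 itself rose 4.33-fold and 6.17-fold. At 48 h it read 176, 152 and 558 units with siLsd1, against 36.2 to 42.9 over the 3 siC arrays, and without siLsd1 replicate 3 its rise was 4.10-fold (limma adjusted p 1.22e-06). Il6ra, its receptor, rose 2.73-fold at 24 h (another probe set read −0.09), and Osmr, the oncostatin M receptor, rose 1.86-fold at 48 h. Of 18 matrix substrates, 0 rose and 4 fell at 24 h, and 2 rose and 3 fell at 48 h, with medians of −0.18 and −0.23. Without siLsd1 48 h replicate 3, 1 rose and 7 fell at 24 h, and 2 rose and 5 fell at 48 h. Hspg2, Lamb1, Vcan and Fn1 fell 1.61-, 1.39-, 1.31- and 1.37-fold at 24 h, genes of perlecan, a laminin chain, versican and fibronectin. At 48 h Lamb1 and Vcan fell 1.29- and 1.41-fold (1.20- and 1.45-fold without siLsd1 replicate 3) and Tnc, of tenascin C, rose 1.56-fold. Nid1 and Bgn, named here after their values were seen, rose by 0.27 and fell by 0.17 log2 units. The Nid1 call was lost without any 1 of the 10 arrays, and other Nid1 probe sets read −0.28 and −0.38. Some dim Vcan probe sets and 1 Tnc probe set read in the opposite direction.

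MMP9 and several other MMPs are also products of leukocytes, so the leukocyte markers are given beside these results. Of 7 tested markers 0 were called at 24 h or 48 h with siLsd1, and without siLsd1 48 h replicate 3, 1 was called higher and 1 lower at 24 h. The summed intensity of all 8 was 919 to 997 with siLsd1 and 937 to 943 with siC at 24 h, and 775 to 914 with siLsd1 and 819 to 859 with siC at 48 h. This sum weights the brighter markers and can hide opposite differences. At 24 h Cd14 averaged 414 units with siLsd1 against 342 with siC, and Lyz2 averaged 227 against 306. Of 8 tested fibroblast markers, 0 rose and 2 fell with siLsd1 at 24 h (2.79% of all genes called lower), and 0 rose and 1 fell at 48 h (6.67%). Without siLsd1 48 h replicate 3, 5 and 2 fell. Marker counts without that array stand beside 25.5% of all genes called higher or lower at 24 h and 18.1% at 48 h. Thy1 fell at both times, to means of 694 against 1231 units with siC at 24 h and 596 against 1050.0 at 48 h (limma adjusted p 0.0112 and 0.00412). Its 24 h call was lost without any 1 of 4 arrays. Fabp4, of 3 tested adipocyte markers, also fell (1467 against 3540.2, and 2387 against 5059, adjusted p 0.0358 and 0.0183). Its 24 h call was lost without any 1 of 7 arrays and its 48 h call without any 1 of 3. The 48 h fall of Fabp4 was 1.75-fold without siLsd1 replicate 3. The 6 adipocyte markers on the array, of which Fabp4 made up nearly the whole sum, summed to 1449 to 1744 units with siLsd1 and 3614 to 3703 with siC at 24 h, and to 1496 to 3116 with siLsd1 and 4711 to 5447 with siC at 48 h. Adipoq and Slc2a4 did not pass the test, and Lep, Cidec and Retn were dim. None of 2 endothelial and 1 epithelial markers tested was called at either time. The part of these marker differences in the Mmp results was not tested.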

How the data were processed

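Total RNA was labelled as biotin-cRNA and hybridised to 10 Affymetrix arrays, per the labels' protocols. The authors deposited probe set intensities on a linear scale, and their summary and normalization are not stated in the labels or headers used. All 10 columns matched a labelled sample, 0 values were at or below 0, and log2 was taken of the deposited intensity with nothing added. Of 45037 probe sets, 34945 carried 1 gene symbol, 932 several and 9160 none. The brightest probe set by mean stood for a gene, the lowest 25% of 18193 genes were left out, and 13644 were tested. The design had a mean per group on all 10 arrays (limma 3.58.1 in R 4.3.3, eBayes with an intensity trend, 6 residual degrees of freedom), and p-values were adjusted by Benjamini and Hochberg within each comparison. Means ± SD are of linear intensities and folds come from log2 differences. The fit was tested on simulated data. Alternatives were the probe set rule, dim filter, normalization, low values, trend, weights, arrays compared, replicate block and each array left out, with averaging siLsd1 48 h replicates 1 and 2 and leaving out arrays for the lists, chosen after seeing the data. Same-numbered siLsd1 and siC arrays did not deviate together (correlations −0.19 to 0.054), so numbers were not taken to pair samples.

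All 10 members were named whatever their values, with Kdm1a, up to 3 called genes with the largest fold per list at 24 h and at 48 h, and the 3 genes most like each member called at 24 h or 48 h. Members, lists and motifs were chosen with earlier results of these data known. The platform annotation and RefSeq (GRCm38.p6) gave names and promoters. Figures were drawn with matplotlib 3.10.9.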

Additional observations from a re-analysis of the deposited data

How the results depend on the processing

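The 40 differences of single members, in 4 comparisons, gave 902 values under the alternatives. Of these 825 kept their direction and side of the threshold, 32 lost a call, 26 gained one and 19 changed sign. Mmp9 at 24 h and Mmp13 at 48 h stayed called under each alternative, as did Timp1 and Timp3 in siC cells over time, and Mmp3 there in the 22 alternatives that tested it. With the lowest 50% of genes left out, Mmp3 and Mmp10 were not tested. At 24 h the count of members called was 1, and 4 with array weights, 4 with the 24 h arrays alone, 2 with the replicate block by number, and 1 to 4 with an array left out. At 48 h it was 3, and 7 with array weights, 1 (Mmp13) with the 48 h arrays alone, 4 with the block, and 2 to 4 with an array left out. Mmp9 at 48 h was not called with the 48 h arrays alone (adjusted p 0.0574). Over all genes, the main fit called 736 at 24 h and 1728 at 48 h. Array weights called 3571 and 4922, and the 48 h arrays alone called 250. In these settings the count of members moved in the same direction as that of all genes, so the move was not particular to the members. For siC over time the count of members was 6, and 3 to 8 with an array left out. For the difference between times it was 0 throughout. Over all settings, the count of all genes called was 30 to 3571 at 24 h and 250 to 4922 at 48 h. For siC over time it was 1482 to 6192, and for the difference between times 0 to 434.

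The sign changes were all of member differences that were not called. With probe sets averaged, Timp3 differed by −0.11 at 24 h, 0.26 at 48 h and 0.37 between times. With arrays centred, Timp1 differed by 0.027 at 48 h, and with array weights Mmp2 differed by 0.068 between times. With an array left out, the 24 h differences ran −0.0487 to 0.397 for Mmp3, −0.0745 to 0.407 for Mmp10, −0.0058 to 0.189 for Timp1 and −0.19 to 0.287 for Timp3, the lowest each time without a siC 24 h array. At 48 h they ran −0.0702 to 0.0044 for Timp1 and −0.341 to 0.0081 for Timp3. The difference between times ran −0.236 to 0.080 for Mmp2, −0.359 to 0.033 for Mmp14 and −0.43 to 0.049 for Timp3, and Mmp10 in siC cells over time ran −0.377 to 0.138. The cause of these changes was not tested. Groups of 2 and 3 arrays limit the precision of every value.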
